A study of Homo sapiens with 4 samples.

Results

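The VEGF receptors and ligands KDR, FLT1, FLT4, VEGFA, VEGFB and VEGFC were read by symbol from the deposited count matrices, as 6 of 36601 features, and described in every annotated class of nuclei. The nuclei came from Stage 1 enteric ganglioids, free-floating cultures of enteric neurons, progenitors and other cells grown in suspension from H9, an established human embryonic stem cell line. The 2 control samples were not exposed to a compound, and the 2 PP121 samples had received 2 µM PP121, which blocks VEGF receptors among other kinases, between day 15 and day 20. All 4 samples, each a pool of many ganglioids, were kept from day 15 in the same medium containing GDNF, which the study's methods call enteric neuron medium. The authors' annotation dates both samples numbered 1 to day 42 and both numbered 2 to day 38, and therefore the day and the differentiation cannot be told apart. The comparisons asked where the receptors, targets of PP121, and their ligands were expressed, and whether levels differed at day 38 or day 42. Exposure had ended on day 20. The study reports that it could not detect VEGF receptor mRNA in its crestospheres, the progenitor cultures that precede the ganglioids. Crestospheres are not among these 4 samples, so the levels given here do not describe the cells at the time of exposure.

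VEGF ligands are secreted dimers that act through 3 receptor tyrosine kinases. KDR (VEGFR2) is the main signalling receptor for VEGFA on blood vessel endothelium, FLT1 (VEGFR1) binds VEGFA and VEGFB tightly but signals weakly and is also made as a soluble form that traps ligand, and FLT4 (VEGFR3) is the receptor for VEGFC on lymphatic endothelium. VEGFA is a classical target of the oxygen-sensing HIF factors, VEGFB acts mainly in metabolically active tissue, and VEGFC must be cut by proteases before it binds FLT4 at full strength. Neural cells also make VEGF ligands, and the neuropilins NRP1 and NRP2 serve them as co-receptors.

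FLT1 and VEGFC, whose levels in the class Progenitor 2 were among the highest of the annotated classes, and KDR, the receptor close to absent, are shown by the 250 bases before their RefSeq start sites (GRCh38.p14, all on the minus strand, printed 5′ to 3′). FLT1 lies at chr13:28495129-28495378, VEGFC at chr4:176792923-176793172 and KDR at chr4:55125596-55125845. The promoter table held 4 of the 6 members, and capitals mark 4 motifs searched on both strands.
FLT1: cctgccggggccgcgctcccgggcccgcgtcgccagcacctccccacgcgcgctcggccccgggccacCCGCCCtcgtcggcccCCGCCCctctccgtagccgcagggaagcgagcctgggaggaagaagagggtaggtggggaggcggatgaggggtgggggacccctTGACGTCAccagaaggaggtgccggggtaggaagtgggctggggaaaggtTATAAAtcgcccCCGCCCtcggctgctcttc
VEGFC: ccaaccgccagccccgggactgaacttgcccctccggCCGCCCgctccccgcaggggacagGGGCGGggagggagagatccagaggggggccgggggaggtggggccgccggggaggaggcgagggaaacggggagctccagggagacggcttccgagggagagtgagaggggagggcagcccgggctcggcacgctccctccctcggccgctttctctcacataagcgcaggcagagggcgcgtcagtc
KDR: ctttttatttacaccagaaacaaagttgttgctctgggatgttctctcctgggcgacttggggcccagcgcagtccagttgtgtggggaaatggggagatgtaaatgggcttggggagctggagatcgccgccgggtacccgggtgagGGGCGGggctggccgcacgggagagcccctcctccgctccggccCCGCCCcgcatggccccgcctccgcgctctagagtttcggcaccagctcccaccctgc
FLT1 carried 1 copy of the cAMP response element TGACGTCA, present in 1.65% of 35116 promoters, 1 TATA box TATAAA, present in 10.7%, and 3 SP1 boxes GGGCGG, present in 42.6%. VEGFC and KDR each held 2 SP1 boxes and neither of the other motifs, and the core of the hypoxia response element ACGTG, present in 18.5% of promoters, was in none of these windows or in that of VEGFB.

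The 4 libraries held 14812 nuclei with a deposited class, between 2912 and 4587 a sample, with 23348045 to 34123759 unique molecular identifiers (UMIs) in all and a median of 6289 to 7071 a nucleus. Levels are given as CPM, the UMIs of a gene scaled to 1000000 UMIs summed over a class in a sample, with 2 samples per group, so that an exact permutation test of 1 value could not go below 0.33. The classes were enteric neurons (6557 nuclei), Progenitor 1 (2892), Progenitor 2 (3800), mesenchymal (903), epithelial (92) and Unknown (568), and since they were made by clustering the same nuclei, levels between classes are a description with no test. Neuronal markers summed to 1916-2479 CPM in enteric neurons and to 502-827 CPM in the progenitor classes, and mesenchymal markers to 2611-2912 CPM in mesenchymal nuclei. Progenitor markers separated the classes less. They summed to 122-195 CPM in Progenitor 1 and 266-360 CPM in Progenitor 2, against 74.7-115 CPM in enteric neurons. The other classes had 33.6-155 CPM of them (mesenchymal), 191-371 CPM (epithelial) and 200-289 CPM (Unknown). Epithelial markers reached only 61.9-104 CPM in the class labelled epithelial, which held 9 to 37 nuclei a sample and had KRT19 at 0 in 3 samples. That class also had 663-1465 CPM of neuronal markers. Mesenchymal nuclei had 207 CPM of epithelial markers in control replicate 1 and 23.0-60.6 CPM in the other samples. Mesenchymal nuclei were 33 to 40 in the day 42 samples and 408 to 422 in the day 38 samples.

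**Figure D1:**
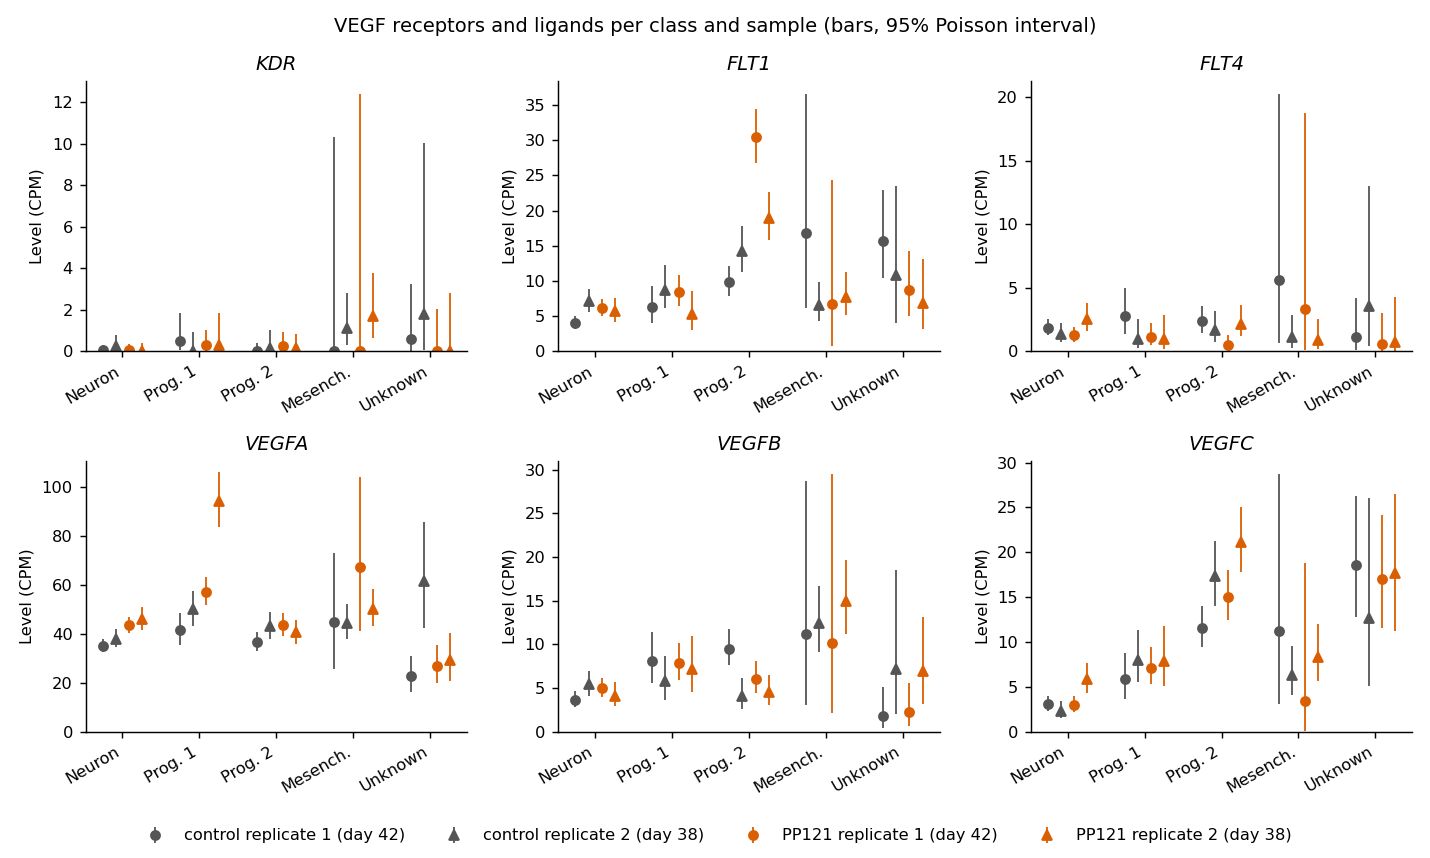
Level of each member (CPM, vertical axis) in 5 classes of nuclei (horizontal axis) in the 4 samples. Points are samples, grey for control and orange for PP121, circles for day 42 and triangles for day 38, and bars are 95% Poisson intervals of the UMI counts; FLT1 was highest in Progenitor 2, where PP121 samples had 30.4 and 19.0 CPM against 9.84 and 14.2 CPM, and KDR stayed below 2 CPM. The epithelial class is not drawn.

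KDR, the principal VEGFA receptor of endothelium, was close to absent. In all annotated nuclei 26 KDR UMIs were counted in 22 nuclei (0.149%), 4 and 9 in the control samples and 5 and 8 in the PP121 samples. Of these, 10 lay in mesenchymal nuclei of the day 38 samples, at 1.11 CPM in control replicate 2 and 1.73 CPM in PP121 replicate 2, while both day 42 samples had 0 in that class. Enteric neurons held 5 KDR UMIs, Progenitor 1 nuclei 5 and Progenitor 2 nuclei 4. After the nuclei with at least 2000 UMIs were thinned to that number, KDR was seen in 7 of 14723 of them (0.0475%, exact 95% interval 0.0191-0.0979%). It was seen in 0 of 6536 enteric neurons, which allows a share of up to 0.0459% at that depth, while 0.0610% of enteric neurons had a KDR UMI without thinning. No class differed from its neighbour in the order of KDR levels beyond the spread of the samples, and no difference between treatments was detectable at this depth.

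FLT1 was the most abundant of the receptors by UMIs, with 1099 in 649 nuclei (4.38%). Its gene spans 194.8 kb, against 47.1 kb for KDR and 48.8 kb for FLT4. The part of gene length in this order was not tested. The highest FLT1 level was in Progenitor 2. There it measured 9.84 CPM in control replicate 1, 14.2 in control replicate 2, 30.4 in PP121 replicate 1 and 19.0 in PP121 replicate 2, from 88, 77, 241 and 123 UMIs. Both PP121 samples thus lay above both control samples, by 1.63 on the log2 scale at day 42 and by 0.41 at day 38. Progenitor 1 nuclei had 6.32 and 8.78 CPM in control and 8.40 and 5.25 CPM in PP121 samples, and enteric neurons 4.01 and 7.12 CPM against 6.12 and 5.71 CPM. In both of those classes the groups overlapped. Averaged over the 4 samples, FLT1 ran from 18.4 ± 8.85 CPM in Progenitor 2 (SD, n = 4) through 14.8 ± 7.92 in the epithelial class, from 1 to 4 UMIs a sample, 10.6 ± 3.79 in Unknown, 9.49 ± 4.91 in mesenchymal and 7.19 ± 1.68 in Progenitor 1 to 5.74 ± 1.30 in enteric neurons, and the range of each class overlapped that of the next. Thinned to 2000 UMIs, 2.52% of 3776 Progenitor 2 nuclei had an FLT1 UMI (exact 95% interval 2.04-3.07%) and 1.04% of 6536 enteric neurons (0.809-1.32%), with median depths of 6491 and 7480 UMIs before thinning and unthinned shares of 6.63% and 3.51%. Nuclei without a class had a median of 723 UMIs over all of them, and only those with at least 2000 UMIs could be thinned. In that deeper part the share was 1.13% (0.657-1.80%), at the level of the neurons, and the shallower majority is not described by it. Free RNA in the droplets was not estimated, no class was known to lack FLT1, VEGFA or VEGFC, and the part of free RNA in these shares was not tested.

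FLT1 UMIs were unevenly spread within Progenitor 2. Nuclei with 3 or more FLT1 UMIs numbered 7 and 8 in the control samples and 32 and 11 in the PP121 samples, and those 32 nuclei carried 178 of the 241 UMIs of PP121 replicate 1. When all annotated nuclei were clustered together without the 6 members, 1 of 12 clusters (cluster 9, left unnamed) held the highest FLT1 level. Among Progenitor 2 nuclei of cluster 9 FLT1 measured 77.0 and 97.2 CPM in control and 95.3 and 32.1 CPM in PP121 samples, so that PP121 replicate 2 was the lowest of the 4. Cluster 9 held 28 of 1155 and 63 of 683 Progenitor 2 nuclei in the control samples and 195 of 1107 and 238 of 855 in the PP121 samples. In the remaining Progenitor 2 nuclei it measured 8.45 and 6.85 CPM in control and 16.7 and 13.7 CPM in PP121 samples, and there the groups did not overlap. The part of this makeup in the difference over the whole class was not tested beyond leaving cluster 9 out. Those nuclei were mostly in clusters 1 and 7. Over all annotated nuclei of cluster 1 the groups overlapped (6.70 and 7.52 CPM in control, 8.51 and 6.05 CPM in PP121 samples). In cluster 7 they did not (10.3 and 8.23 CPM in control, 32.6 and 20.1 CPM in PP121 samples). The doublet candidates, the 6% of nuclei of each sample with the highest Scrublet score, made up 8.30% of cluster 7, 3.04% of cluster 9 and 2.73% of cluster 1.

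By the deposited cell cycle calls, Progenitor 2 nuclei in S phase had 9.68 and 20.2 CPM of FLT1 in control and 42.4 and 26.9 CPM in PP121 samples. Those in G2M had 9.16 and 3.45 CPM in control and 33.7 and 17.7 CPM in PP121 samples. In G1 the values were 10.2 and 13.6 CPM against 21.0 and 14.0 CPM, so PP121 samples were above both controls in every phase, in G1 by less than the counting error at day 38.

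**Figure D2:**
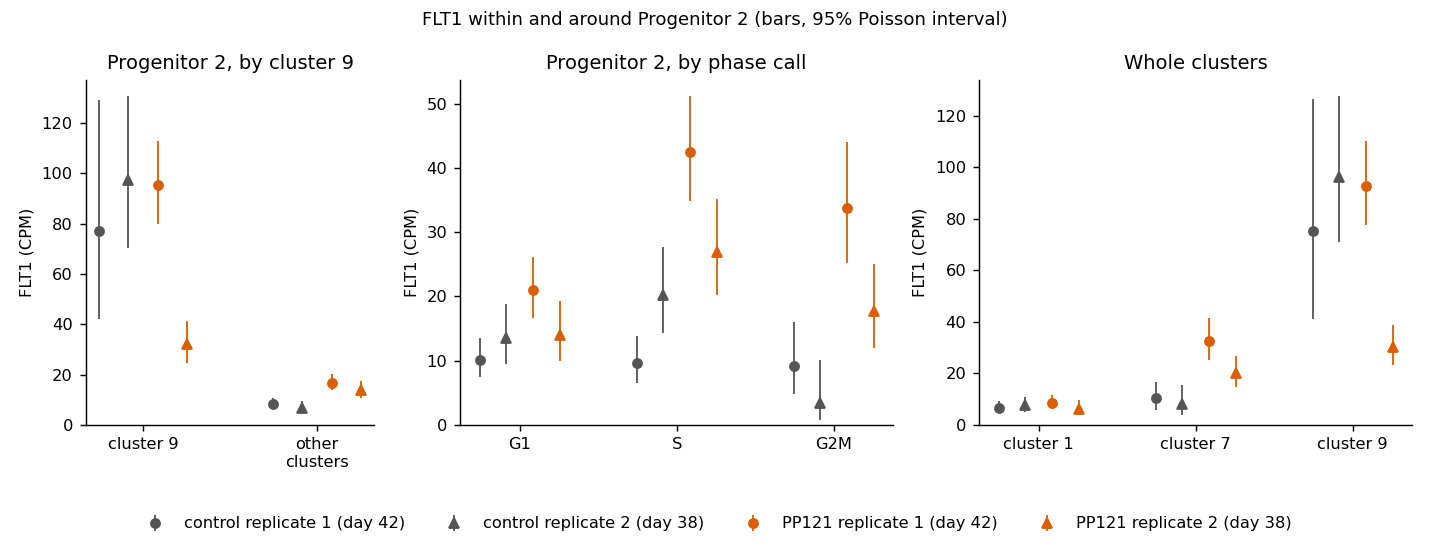
FLT1 level (CPM, vertical axes) in Progenitor 2 nuclei inside and outside cluster 9 (left), in Progenitor 2 nuclei by phase call (middle) and in all annotated nuclei of clusters 1, 7 and 9 (right). Points are samples, grey for control and orange for PP121, circles for day 42 and triangles for day 38, with 95% Poisson intervals; cluster 1 shows no separation of the groups, cluster 7 does, and in cluster 9 PP121 replicate 2 is lowest at 30.2 CPM.

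In edgeR's quasi-likelihood test on the summed counts, FLT1 in Progenitor 2 was 1.08 ± 0.29 higher with PP121 on the log2 scale (SE, 2 samples per group), with a Benjamini-Hochberg adjusted p of 0.368, and it did not pass the threshold of 0.05. The tests of Progenitor 2 alone were added after the data were seen, so their p-values are descriptive. Of the 18885 genes tested there, 0 passed (0%), while 1774 had an unadjusted p under 0.05 and DESeq2 called 96. With the replicate number as a block the change was 1.10 ± 0.21 and the adjusted p 0.000167, and FLT1 was the only 1 of 5 members tested to pass, beside 6.71% of all genes. The blocked call was kept without cluster 9 (1.01, adjusted p = 0.0141) and without the doublet candidates (0.98, adjusted p = 0.0024), and was lost when classes came from the joint clusters (0.89, adjusted p = 0.113), settings that called 4.81%, 6.21% and 3.22% of genes. Without the block, leaving out each sample in turn gave 0.72 to 1.39, lowest without PP121 replicate 1 (adjusted p = 0.141). It was called without PP121 replicate 2 (1.36, adjusted p = 7.71e-05), where the remaining PP121 sample is assumed to vary like the controls, and with no filter on low counts, and DESeq2 gave an adjusted p of 0.173. Over both progenitor classes together, the set that had been planned, the change was 0.73 ± 0.27 (adjusted p = 0.940, or 0.129 with the block, where 1.72% of genes passed). In enteric neurons it was 0.15 ± 0.34 (adjusted p = 0.883) and in Progenitor 1 nuclei -0.16 ± 0.43 (adjusted p = 1.00). The difference between classes did not pass either, being 0.88 ± 0.28 larger in Progenitor 2 than in neurons (adjusted p = 0.392) and 1.27 ± 0.37 larger than in Progenitor 1 (adjusted p = 0.835), in tests that called 0% and 0.00524% of all genes.

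FLT4, the VEGFC receptor, was sparse, with 187 UMIs in 174 nuclei (1.17%). Enteric neurons had 1.85 and 1.35 CPM in control and 1.25 and 2.51 CPM in PP121 samples, and Progenitor 2 nuclei 2.35 and 1.67 CPM against 0.505 and 2.16 CPM. The groups overlapped in both classes, and no class stood apart from its neighbours in the order of FLT4 levels. FLT1 and FLT4 were detected together in 16 nuclei, and FLT1 and KDR in 2.

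Endothelial cells, the textbook site of all 3 receptors, were looked for by 14 markers. These summed to 38.9-47.8 CPM in enteric neurons, 12.3-18.1 CPM in Progenitor 1 and 14.4-19.4 CPM in Progenitor 2, with 9 to 13 of the 14 seen and SOX17 at 0 in each of these sums. In Progenitor 2 the PP121 samples, with 15.3 and 17.4 CPM, lay within the controls, at 19.4 and 14.4 CPM. In mesenchymal nuclei the sum was 58.9 and 57.2 CPM at day 42 and 114 and 281 CPM at day 38. Of the 649 nuclei with FLT1, 6 had a PECAM1 UMI, 18 a CDH5 UMI and 1 both, and 4 (0.616%) had 3 or more of the markers, against 0.162% of nuclei without FLT1, which were shallower (median 6689 against 9291 UMIs). Mural markers summed to 98.3-124 CPM in Progenitor 2, lymphatic endothelial markers to 52.3-65.6 CPM and myeloid markers to 7.06-17.1 CPM. Myeloid markers were 17.1 and 15.9 CPM in control and 7.06 and 9.73 CPM in PP121 samples of Progenitor 2, and progenitor markers 266 and 281 CPM in control and 295 and 360 CPM in PP121 samples. Their part in the FLT1 result was not tested.

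VEGFA, the hypoxia-inducible ligand, was the most widely detected member, with 5001 UMIs in 3466 nuclei (23.4%). In enteric neurons it measured 35.04 and 37.97 CPM in control and 43.5 and 46.0 CPM in PP121 samples. In Progenitor 1 nuclei it measured 41.4 and 49.9 CPM in control and 57.1 and 94.3 CPM in PP121 samples, the highest class mean at 60.7 ± 23.3 CPM (SD, n = 4). Both PP121 samples were above both controls in each of these classes, and PP121 replicate 2 stood out in Progenitor 1. Of the Progenitor 1 nuclei, 88.9% and 90.1% in the control samples but 73.4% and 65.1% in the PP121 samples lay in joint clusters of that class, and the part of this makeup in the VEGFA values was not tested beyond the joint classes. Progenitor 2 nuclei had 36.6 and 42.9 CPM against 43.5 and 40.5 CPM, and the groups overlapped. Mesenchymal nuclei had 44.8 and 44.5 CPM against 67.3 and 50.1 CPM. Every class range overlapped the next in the order of VEGFA levels, down to Unknown at 35.0 ± 17.7 CPM. Thinned to 2000 UMIs, 11.1% of 2857 Progenitor 1 nuclei had a VEGFA UMI (exact 95% interval 9.93-12.3%) and 7.31% of enteric neurons (6.69-7.97%). In Progenitor 1 the PP121 samples were above both controls in all 3 phase calls, with 85.8, 86.6 and 107 CPM in G1, S and G2M of PP121 replicate 2 against 40.1-52.5 CPM in the control samples. In the same class myeloid markers summed to 22.2 and 15.3 CPM in control and 11.1 and 9.52 CPM in PP121 samples and neuronal markers to 668 and 502 CPM against 708 and 728 CPM, and their part in the VEGFA result was not tested.

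In Progenitor 1 nuclei VEGFA was 0.71 ± 0.33 higher with PP121 on the log2 scale, which did not pass the edgeR test (adjusted p = 1.00). The tests of Progenitor 1 alone were also added after the data were seen, so their p-values are descriptive. None of the 16083 genes passed without the block (0%), though 1 did by DESeq2. With the replicate block the change was 0.67 ± 0.20 with an adjusted p of 0.0255, beside 3.69% of all genes called, and with joint classes the adjusted p was 0.248, beside 0.768%. Leaving out PP121 replicate 2 reduced the change to 0.21 and leaving out PP121 replicate 1 raised it to 1.10 (adjusted p = 0.0209), where the remaining PP121 sample is assumed to vary like the controls. In enteric neurons VEGFA was 0.33 ± 0.14 higher (adjusted p = 0.412, or 0.0514 with the block and 0.0261 with the block and joint classes, beside 6.79% of genes), where 0% of 21243 genes passed without the block, 2549 had an unadjusted p under 0.05, DESeq2 called 87, and 14.8% passed with the block. The change was 0.32 ± 0.17 in all annotated nuclei (adjusted p = 0.931, or 0.289 with the block, where 0.883% of genes passed) and 0.11 ± 0.15 in Progenitor 2 (adjusted p = 0.876). It was 0.35 ± 0.36 in mesenchymal nuclei, again without passing (adjusted p = 1.00), where 0% of genes passed and 0.452% with the block. The VEGFA change was 0.53 ± 0.29 smaller in Progenitor 2 than in Progenitor 1, a difference that did not pass (adjusted p = 1.00). A sum over all annotated nuclei moves alike when a class holds fewer nuclei or less RNA per nucleus, and these cannot be told apart there.

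**Figure D3:**
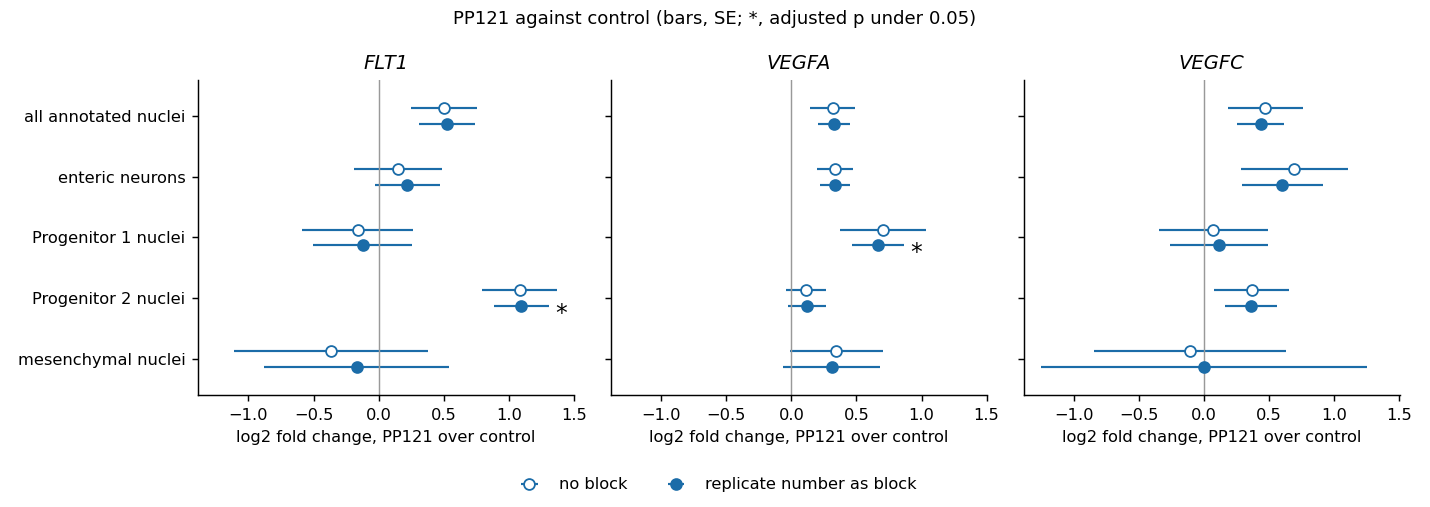
Change with PP121 (log2 fold change, horizontal axes) of FLT1, VEGFA and VEGFC in 5 sets of nuclei (vertical axis), from edgeR fits without (open) and with (filled) the replicate number as a block. Bars are standard errors and asterisks mark an adjusted p under 0.05: only FLT1 in Progenitor 2 (1.10) and VEGFA in Progenitor 1 (0.67) pass, both with the block. The tests of Progenitor 1 and Progenitor 2 alone were added after the data were seen.

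VEGFA was lower in some neurons than in others of the same sample, without passing the test. The deposited annotation calls some neurons nitrergic (NO neurons). The study's methods base this call on NOS1 and a module of NO genes, none of them a member, and use imputed expression downstream unless stated otherwise. Since the call rests on expression in the same nuclei, p-values between NO and other neurons are descriptive. NO neurons had 34.2 and 25.4 CPM of VEGFA in control and 29.1 and 13.9 CPM in PP121 samples, the last from 12 UMIs. The other neurons had 34.8 and 40.7 CPM in control and 46.0 and 51.2 CPM in PP121 samples, above the NO neurons of the same sample in 4 of 4 samples. With the sample as a term, VEGFA was 0.55 ± 0.18 lower in NO neurons, which missed the threshold (edgeR adjusted p = 0.0715, DESeq2 0.0684), while 12.3% of 17713 genes passed. Leaving out control replicate 1 gave a decrease by 0.84 (adjusted p = 0.0204), and leaving out PP121 replicate 2 a decrease by 0.39 (adjusted p = 0.0860). When NO neurons with a NOS1 UMI of their own were set against other neurons without any, the decrease was 0.44 (adjusted p = 0.752). That setting rested on 41, 24, 33 and 17 NO neurons a sample and called 327 of 16332 genes, against 2171 by the annotation alone. VEGFC had 2.26-5.80 CPM in NO neurons and 1.68-3.95 CPM in the others.

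**Figure D4:**
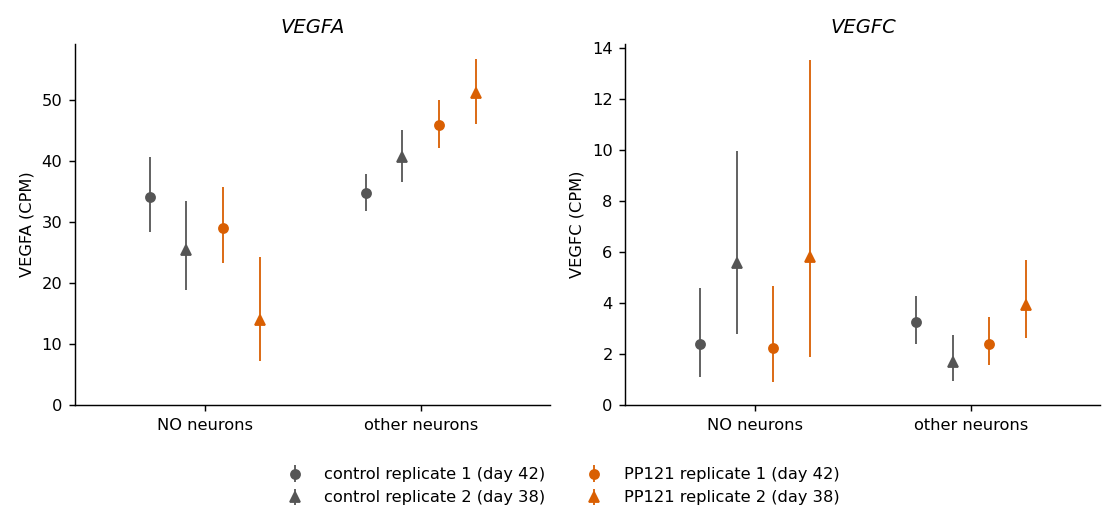
Level (CPM, vertical axes) of VEGFA (left) and VEGFC (right) in NO neurons and other neurons. Points are samples, grey for control and orange for PP121, circles for day 42 and triangles for day 38, with 95% Poisson intervals; VEGFA is lower in NO neurons in 4 of 4 samples, by least in control replicate 1 (34.2 against 34.8 CPM).

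VEGFB, a ligand of FLT1 only, gave 695 UMIs in 628 nuclei (4.24%) and was highest in mesenchymal nuclei. These had 11.2 and 12.4 CPM in control and 10.1 and 14.98 CPM in PP121 samples, against 4.54 ± 0.81 CPM in enteric neurons (SD, n = 4). Progenitor 1 nuclei had 8.09 and 5.77 CPM in control and 7.83 and 7.22 CPM in PP121 samples. VEGFB did not separate the treatments in any of these classes, and in all annotated nuclei the means were 5.96 ± 0.39 CPM in control and 6.10 ± 0.51 CPM in PP121 samples (SD, n = 2).

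VEGFC, the lymphangiogenic ligand, was highest in Progenitor 2 and Unknown nuclei. Progenitor 2 had 11.5 and 17.4 CPM in control and 15.01 and 21.2 CPM in PP121 samples, and Unknown nuclei 18.6 and 12.6 CPM against 16.98 and 17.7 CPM. Mesenchymal nuclei followed at 7.32 ± 3.31 CPM (SD, n = 4). Their highest sample, control replicate 1 with 11.2 CPM from 4 UMIs, lay just below the lowest of Progenitor 2 at 11.5 CPM. These were the only neighbouring classes of any member whose ranges did not overlap, by a gap smaller than the counting error of 4 UMIs. Progenitor 1 had 5.81-8.03 CPM and enteric neurons 2.34-5.83 CPM. Thinned to 2000 UMIs, 2.70% of Progenitor 2 nuclei (exact 95% interval 2.21-3.27%) and 0.520% of enteric neurons (0.361-0.726%) had a VEGFC UMI. VEGFC with PP121 was 0.36 ± 0.29 higher in Progenitor 2 (adjusted p = 0.753) and 0.27 ± 0.31 higher in both progenitor classes together (adjusted p = 1.00), without passing. The 0.69 ± 0.41 in enteric neurons (adjusted p = 0.537) fell to 0.25 without the neurons that other deposited columns call Non-Neuronal. Those 61 nuclei of PP121 replicate 2 held 18 of its 51 neuronal VEGFC UMIs. In all annotated nuclei the change was 0.47 ± 0.29 (adjusted p = 0.931), and 0.08 without PP121 replicate 2.

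Between the days, no member passed the test without a treatment term, which called 0.721% of genes in all annotated nuclei, 1.93% in mesenchymal nuclei and 0% in the other classes. KDR over all annotated nuclei was 1.46 ± 0.52 lower at day 42 (adjusted p = 0.325), beside the smaller number of mesenchymal nuclei. VEGFC was 0.52 ± 0.25 lower at day 42 in all annotated nuclei (adjusted p = 0.445), 0.64 ± 0.22 lower in progenitors (adjusted p = 0.391) and 0.60 ± 0.23 lower in Progenitor 2 (adjusted p = 0.753). VEGFB in Progenitor 2 was 9.51 and 6.05 CPM at day 42 and 4.07 and 4.48 CPM at day 38, a difference of 0.80 ± 0.32 (adjusted p = 0.767). VEGFA in Progenitor 1, a set added after the data were seen, was 0.69 ± 0.30 lower at day 42 (adjusted p = 0.253). With treatment as a term it fell by 0.67 ± 0.20 (adjusted p = 0.00956), beside 14.6% of the 16083 genes against 0% without that term. Without PP121 replicate 2, the day 38 sample of highest VEGFA, the difference shrank to -0.19, and without control replicate 2 it was -1.08 (adjusted p = 0.0244), where the remaining day 38 sample is assumed to vary like those of day 42.

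Of the other ligands and co-receptors (PGF, VEGFD, NRP1 and NRP2), NRP1 was the most abundant in neurons, at 44.5 and 40.5 CPM in control and 50.7 and 66.9 CPM in PP121 samples. With the block it rose by 0.48 ± 0.12 in enteric neurons (adjusted p = 0.00784), the only 1 of the 4 to pass there, beside 14.8% of all genes, and 0 passed without the block. Mesenchymal nuclei had 70.7-181 CPM of NRP1. NRP2 was 0.78 ± 0.18 higher in NO neurons than in other neurons (adjusted p = 0.0115), and 0.55 higher by the NOS1 UMI (adjusted p = 0.782). PGF and VEGFD, the remaining ligands of the list, chosen after their values were seen, stayed between 1.19 and 1.35 CPM and between 0.541 and 1.27 CPM in enteric neurons.

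Among 29 genes of VEGF receptor signalling, 0 passed in any PP121 comparison without the block. With it, 4 of 28 passed in enteric neurons, 2 upward and 2 downward, beside 14.8% of all genes, among them MAPKAPK2 (0.51 ± 0.11) and SHC2 (0.44 ± 0.14) upward and HSPB1 (-0.57 ± 0.19) downward. The median change of the 28 tested was 0.12, against -0.01 over all genes tested. MAPKAPK2 is the kinase downstream of p38 that phosphorylates the small heat shock protein HSPB1, and SHC2 is an adaptor. In NO neurons 4 of 26 were higher than in other neurons, PRKCB (0.90 ± 0.11), SHB (0.96 ± 0.18), PTPRJ (0.52 ± 0.10) and PRKCA (0.52 ± 0.11), and 0 were lower, beside 7.88% of all genes higher and 4.38% lower. By the NOS1 UMI PRKCB passed (0.89, adjusted p = 0.00128), while SHB (adjusted p = 0.181), PTPRJ (0.632) and PRKCA (0.387) did not.

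The hypoxia-inducible genes other than VEGFA lay higher in PP121 samples, in 9 of 10 tested in enteric neurons and in Progenitor 1 and in 9 of 9 in Progenitor 2, without passing the test lacking the block. Their median change was 0.62 in enteric neurons, 0.66 in Progenitor 1 and 0.79 in Progenitor 2, against -0.0022, 0.01 and -0.01 over all genes tested. With the block 6 passed in each of these classes, all upward, beside 7.97%, 2.9% and 4.38% of all genes called upward. ENO1, a glycolytic enzyme, measured 56.9 and 101 CPM in control and 104 and 172 CPM in PP121 samples of enteric neurons, and 66.9 and 101 CPM against 138 and 233 CPM in Progenitor 2. Its blocked change was 0.86 ± 0.10 in neurons, 1.23 ± 0.17 in Progenitor 1 and 1.16 ± 0.12 in Progenitor 2. PDK1, which restrains mitochondrial use of pyruvate, rose by 0.81 ± 0.10, 0.99 ± 0.18 and 0.95 ± 0.14 in the same classes. Without the block, leaving out each sample in turn moved the change of ENO1 from 0.41 to 1.36 in neurons, 0.61 to 1.78 in Progenitor 1 and 0.73 to 1.54 in Progenitor 2, and that of PDK1 from 0.39 to 1.21, 0.29 to 1.66 and 0.47 to 1.40, lowest without PP121 replicate 2 in each. In NO neurons 5 of 9 were lower than in other neurons, as was VEGFA without passing, among them SLC2A1, a glucose transporter (-0.82 ± 0.14), BNIP3, a mitophagy receptor (-0.77 ± 0.14), and ENO1 (-0.60 ± 0.12), with a median of -0.41 against -0.0043 over all genes and beside 4.38% of all genes lower. By the NOS1 UMI SLC2A1 (adjusted p = 0.189), BNIP3 (0.0841) and ENO1 (0.103) did not pass. Between the days 0 of 10 passed over all annotated nuclei without a treatment term, and with it 5 were lower at day 42 and 0 higher, beside 5.52% of all genes, with a median of -0.54 against 0.01.

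**Figure D5:**
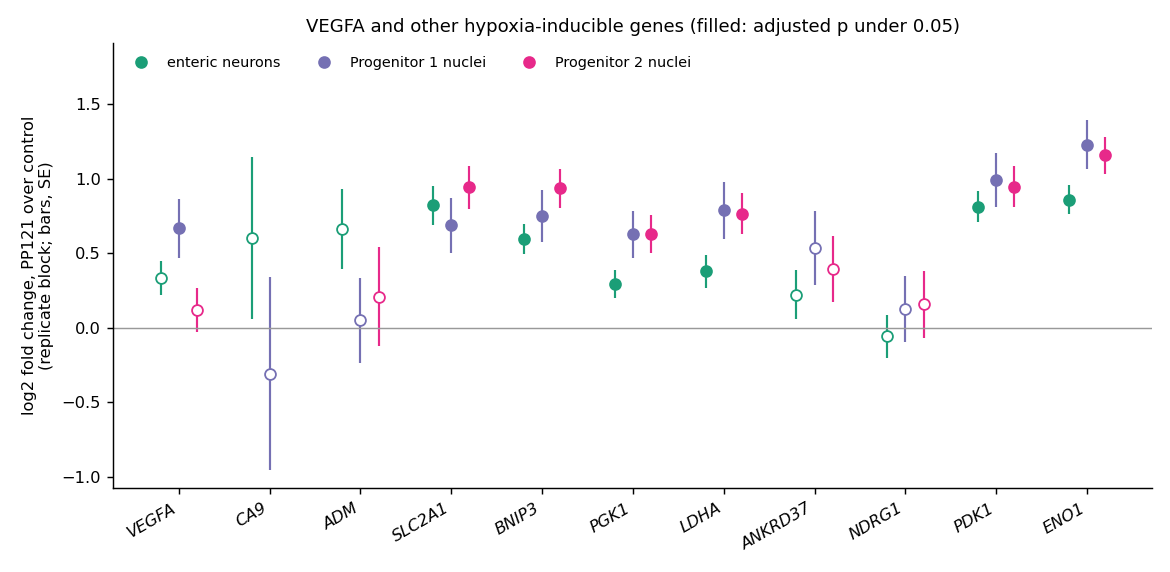
Change with PP121 (log2 fold change with the replicate block, vertical axis; bars, SE) of VEGFA and 10 other hypoxia-inducible genes (horizontal axis) in 3 classes. Filled points passed the adjusted p threshold of 0.05: VEGFA in Progenitor 1 alone, and 6 of the others in each class.

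In the oxygen-sensing machinery upstream of VEGFA, 0 genes passed with PP121 without the block and 2 of 10 did with it in enteric neurons, EGLN1 (0.45 ± 0.10) and ARNT2 (0.31 ± 0.10), beside 14.8% of all genes, with a median change of 0.25 over the 10 against -0.01 over all genes. In Progenitor 2 EGLN1 (0.61 ± 0.13) and EGLN3 (0.69 ± 0.21) passed with the block, beside 6.71% of all genes, with a median of 0.01 against -0.0045. In Progenitor 1 0 genes of the lists other than the hypoxia-inducible one passed with PP121. In mesenchymal nuclei 0 genes of any list passed with PP121, without or with the block, including 0 of the 8 hypoxia-inducible genes tested there. EGLN1 and EGLN3 are prolyl hydroxylases that mark HIF subunits for destruction, and ARNT2 is a partner of those subunits. HIF1A itself, added here after its values were seen, measured 100.0 and 129 CPM in control and 92.2 and 112 CPM in PP121 samples of enteric neurons, with the groups overlapping.

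Of the 5 genes of VEGFC maturation, ADAMTS3, the protease that cuts VEGFC, measured 9.17 and 4.81 CPM in control and 11.5 and 16.8 CPM in PP121 samples of Progenitor 2 and rose by 0.99 ± 0.26 with the block (adjusted p = 0.00952), the only 1 of 4 tested to pass, beside 6.71% of all genes, with a median of -0.06 over the 4. Its partner CCBE1 was a mesenchymal gene here, at 205-448 CPM in that class and under 5 CPM in neurons and progenitors. Over all annotated nuclei CCBE1 was 3.19 ± 0.26 lower at day 42 (adjusted p = 0.00682), where 0.721% of genes passed and where mesenchymal nuclei were fewer. In mesenchymal nuclei PCSK5, a proprotein convertase that processes VEGFC, was 2.58 ± 0.52 lower at day 42 (adjusted p = 0.0301). In NO neurons CCBE1 was 2.45 ± 0.40 higher than in other neurons (adjusted p = 0.00127), and 1.63 higher by the NOS1 UMI (adjusted p = 0.604).

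Across 20 sums of 5 classes in the 4 samples, the genes most like each member were taken by Pearson's r of log2(CPM + 1) among 11597 genes, as a description in which the points share libraries and depth. VEGFC ran closest to ZNRF3 (0.945), CEP152 (0.933) and GLI3 (0.929), VEGFA to MIER2 (0.849), then FAM210A and the glycolytic gene PGK1 (0.801), FLT1 to OFD1 (0.799), VEGFB to PPRC1 (0.817) and FLT4 to MSANTD3 (0.737). These are the highest values among 11597 genes over only 20 sums, and how high unrelated genes would reach was not tested. FLT4 averaged only 1.83 CPM over the sums. Among the members, FLT1 and VEGFC were the most alike (0.696). In single nuclei FLT1 and VEGFA coincided in 27.4% of nuclei with FLT1 against 23.2% of those without, and at matched depth the shares were 20.8% against 20.6% between 4000 and 8000 UMIs and 28.2% against 29.6% between 8000 and 16000 UMIs.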

How the data were processed

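Single-nucleus RNA-seq of 4 samples was deposited as raw counts, UMIs per gene and nucleus, with percent columns for mitochondrial and ribosomal reads and an annotation that the authors made. The deposited counts were made by the authors from 10x Genomics 3′ libraries. The submitters' processing notes name Cell Ranger, Seurat 4.0.4 and GRCh38, the study's methods name kallisto and bustools, and counting of introns and strand is not given in the sources used here. UMIs of KDR, VEGFA and VEGFC could therefore be shared with an overlapping gene. The percent columns that the authors deposited were not used in a test. Of 25306 deposited nuclei, the 14812 with a class were used, as the authors assigned it. The remainder were marked as filtered in the annotation and had median depths of 666 to 822.5 UMIs. Groups came from the sample labels, since the annotation's sample-name column differs from them for both controls. Libraries shared 0 to 8 annotated barcodes a pair. No doublet caller was applied, and as an alternative the 6% of nuclei with the highest Scrublet score were removed per sample.

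Counts were summed per sample and class. PP121 was compared with control, and day 42 with day 38, by edgeR 4.0.16 quasi-likelihood tests in R 4.3.3 with trimmed-mean normalisation, edgeR's expression filter and Benjamini-Hochberg adjustment over all genes at 0.05. For NO against other neurons the fit held a sample term, and its p-values are descriptive because the identity was called from expression in the same nuclei. Alternatives were DESeq2 1.42.0, the replicate number as a block (for days, treatment as a term), no filter, at least 10 counts in every sample, leaving out each sample (the sample left alone in its group is assumed to vary like the other group), removing doublet candidates and classes from 12 joint clusters made with scanpy 1.11.5. Tests of Progenitor 1 and Progenitor 2 alone, of cluster 9 and of neurons called Non-Neuronal were added after seeing the data. Deviations of same-numbered samples correlated at 0.275 to 0.532 over genes, and the number coincides with the labelled differentiation replicate, so that the block pairs them but leaves 1 residual degree of freedom. P-values measure the spread between these samples only. Intervals are exact Poisson or Clopper-Pearson at 95% and, like the floor of 3 counts, cover counting error only. Scripts were tested on simulated counts drawn with a fixed dispersion and no effect of the replicate number. That simulation cannot show how the blocked fits behave where same-numbered samples deviate together. The members and gene lists were chosen with earlier results of these data known. From each list the genes with an adjusted p under 0.05 were named, at most 5 per list by smallest p, except 1 result that is not reported here. The standard error of a fold change is its size over the square root of the F statistic. Sequences came from the RefSeq promoter table (GRCh38.p14).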

Additional observations from a re-analysis of the deposited data

Results flagged for a closer look

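The FLT1 mean with PP121 lay above control in Progenitor 2 and below it in the epithelial and Unknown classes, which held only 10 and 58 FLT1 UMIs. The PP121 mean lay 12.6 CPM above the control mean in Progenitor 2, with both PP121 samples above both controls. In the epithelial class it was -10.7 CPM from the control mean, resting on 4 and 4 UMIs in control and 1 and 1 UMIs in PP121 samples. In Unknown nuclei it was -5.42 CPM from the control mean, with both PP121 samples below both controls. In cluster 11, which held 437 of the Unknown nuclei, the groups overlapped. FLT1 there had 15.8 and 2.60 CPM in control, the latter from 1 UMI, and 9.42 and 7.25 CPM in PP121 samples. The difference between these classes was not tested. Nuclei without a class are marked as filtered in the deposited annotation and entered only the alternative over every deposited nucleus. Their median depths were 666 to 822.5 UMIs a sample, and they also carried FLT1 and VEGFA. FLT1 there averaged 9.98 ± 1.06 CPM in PP121 samples and 6.88 ± 0.034 CPM in control (SD, n = 2), and VEGFA 56.8 ± 8.42 CPM in PP121 samples and 45.8 ± 0.996 CPM in control. Both PP121 samples were above both controls for FLT1 and VEGFA. KDR went the other way, with 0.204 ± 0.052 CPM in PP121 samples and 0.568 ± 0.028 CPM in control, from 17 UMIs in all. For FLT4, VEGFB and VEGFC the groups overlapped. The share of all genes that separate the groups in these nuclei was not counted, so no result about the members is drawn from them.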

How the results depend on the processing

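The replicate block decided most calls. With PP121 it raised the genes called from 0 to 213 in all annotated nuclei, 3152 in enteric neurons, 349 in progenitors, 65 in mesenchymal nuclei, 593 in Progenitor 1 and 1267 in Progenitor 2, and with treatment as a term the day comparison of all annotated nuclei called 1332 genes in place of 174. The members called rose from 0 to 1 with the block in Progenitor 1 and Progenitor 2, with the block and joint classes in enteric neurons, in Progenitor 2 with no filter and with the block without cluster 9 or without doublet candidates, and in the day comparison of Progenitor 1 with treatment as a term. Leaving out each sample in turn gave 0 to 1 members called in Progenitor 1, Progenitor 2, the days in Progenitor 1 and NO neurons. It turned the direction of FLT1 in enteric neurons (-0.26 to 0.64), VEGFC in progenitors (-0.10 to 0.60), FLT1 in Progenitor 1 (-0.47 to 0.18) and VEGFA in Progenitor 2 (-0.039 to 0.26). FLT1 in Progenitor 1 was also reversed with joint classes, at 0.11 and, with the block, 0.079. Of 250 alternatives to 25 member fold changes, 232 kept direction and side of the threshold, 11 passed it newly and 7 were reversed. Since no member passed in any main fit, keeping the side meant not passing, and no call could be lost. The share of nuclei with a UMI followed the depth: thinned to 1000 UMIs, to 4000 UMIs or not at all, FLT1 was seen in 1.37%, 4.47% and 6.63% of Progenitor 2 nuclei and in 0.549%, 2.05% and 3.51% of enteric neurons, VEGFA in 4.77%, 17.4% and 24.5% of Progenitor 1 nuclei, and VEGFC in 1.55%, 5.63% and 8.21% of Progenitor 2 nuclei. By the NOS1 UMI the genes called between NO and other neurons fell from 2171 to 327. The cause of the other changes was not tested.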
